A study of Mus musculus with 6 samples.

Results

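The 10 genes described here encode the widely expressed subunits of the vacuolar H+-ATPase (V-ATPase). They were chosen by name, as 3 subunits of the membrane sector V0, 6 of the cytosolic sector V1 and 1 accessory subunit, and all 10 were found among the 19060 genes counted in the mouse incisor. All 10 were also among the 15826 genes that passed the filter on low counts. The samples were 3 control mice (Fgfr1fl/fl, called wild type in the labels) and 3 mutant mice (Gli1CreER;Fgfr1fl/fl), with loxP sites around Fgfr1 in both groups, whose incisors were taken at the age of 1 month and 1 week after tamoxifen. The proximal end of the incisor was used, per the study's methods, and the purpose was to compare gene expression when FGF signalling is removed from the mesenchymal stem cells. The Gli1 promoter drives the tamoxifen-inducible Cre, so recombination is limited to Gli1+ cells and their progeny, while RNA came from the whole tissue.

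The V-ATPase is a rotary proton pump of lysosomes, endosomes, the Golgi apparatus and some plasma membranes. V1 hydrolyses ATP and turns a central shaft, the turning shaft drives a ring of proteolipids in V0, and the ring carries protons across the membrane. The acid it makes lets lysosomes degrade what autophagy delivers, the pump is a docking partner for the amino acid sensing machinery of mTORC1, and in teeth it also serves the acid and base balance of enamel-forming ameloblasts and of osteoclasts. Many of its genes carry an E-box of the CLEAR type, the site read by the MiT/TFE transcription factors, which switch on lysosomal genes.

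Promoter sequence was at hand for 7 of the 10 members, in RefSeq windows on GRCm38.p6 that run from 250 bases before to 50 bases after the annotated start. The E-box CACGTG, which reads the same on both strands, was found in 3 members, Atp6v0b, Atp6v0d1 and Atp6v1a. Over all 27025 genes with a window, 8.09% held it. Atp6v0b held it 2 times, starting 36 and 18 bases before the start. Atp6v0d1 held it from 3 bases before the start, across it, and Atp6v1a held it 131 bases before. The longer form TCACGTGA, which contains the E-box, was found in 2 members, Atp6v0d1 and Atp6v1a, and in 1.12% of all genes. The letters CACGTG do not occur in the windows of Atp6v0c, Atp6v1d, Atp6v1e1 and Atp6ap1. The 100 bases around each match are shown because the 3 genes differed in how they compared between the genotypes, with the E-box in capitals. All 3 are read from the minus strand, at chr4:117887320-117887419 (Atp6v0b), chr8:105566055-105566154 (Atp6v0d1) and chr16:44139338-44139437 (Atp6v1a, inside the gene but in no exon of the GENCODE M21 annotation).
Atp6v0b: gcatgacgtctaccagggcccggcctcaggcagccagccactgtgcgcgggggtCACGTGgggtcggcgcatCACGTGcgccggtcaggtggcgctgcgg
Atp6v0d1: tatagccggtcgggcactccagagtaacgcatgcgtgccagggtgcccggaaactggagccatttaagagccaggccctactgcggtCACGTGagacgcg
Atp6v1a: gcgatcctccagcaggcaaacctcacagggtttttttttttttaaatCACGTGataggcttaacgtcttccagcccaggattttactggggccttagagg

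The members did not move as a block. Of the 10, 1 was higher in the mutants (Atp6v0b), 3 were lower (Atp6v0d1, Atp6v1b2 and Atp6ap1) and 6 overlapped between the genotypes. These 4 passed the rule that the study used, an unadjusted p under 0.05 with a change of over 1.5-fold, here in edgeR's quasi-likelihood test. Over all genes tested, 8.92% were called lower and 10.9% higher by the same rule. Of the genes called, 55.0% were higher, and with scaling by total counts alone 34.9% were, as the median log2 change of all genes went from -0.04 to -0.30. The 4 members passed in the same directions with that scaling and with TMM. None of the 10 had an adjusted p under 0.05 in edgeR, against 6.79% of all genes, and 4 of the 10 had an unadjusted p under 0.05, against 20.1% of all genes. DESeq2 gave an adjusted p under 0.05 to 2 of the 10, Atp6v0b and Atp6v1b2, against 10.2% of all genes. In 3 members every mutant sample lay below every control sample, and in 1 every mutant sample lay above. Over all genes these shares were 16.3% and 14.1%. The median log2 change of the 10 members was -0.13, where that of all genes tested was -0.04 and that of the protein-coding genes -0.11.

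Depth differed between the genotypes, with 31060222 to 32712448 counts per control sample and 5276557 to 11819576 per mutant sample. Members had from 1407 to 12480 counts in a control sample and from 302 to 3394 in a mutant sample. Fgfr1, the deleted gene, had 529, 924 and 434 CPM (edgeR's library-scaled counts, after upper-quartile scaling) in the controls and 148, 318 and 262 CPM in the mutants. Its log2 change was -1.37 (SE 0.40), with an edgeR adjusted p of 0.0881. Markers of dental mesenchyme and odontoblasts were present, with Dspp at a mean of 3907 CPM in control and 3013 CPM in mutant samples, and Msx1 at 244 and 321 CPM. None of these 9 markers passed the rule, and their summed level ran from 2232 to 8741 CPM in control and from 3088 to 4452 CPM in mutant samples. Markers of the enamel epithelium were abundant too, led by Amelx (59345 and 25371 CPM) and Ambn (36398 and 16600 CPM). Their sum over 8 genes was 85190 to 120107 CPM in control and 31320 to 69639 CPM in mutant samples, none of the 8 was at 0 in the mutants, and none passed the rule. The sum of 6 skeletal muscle genes, led by Acta1 and Mylpf in the mean of all samples, was 2491 CPM in control sample 2 and 5373 CPM in mutant sample 1, and between 8.04 and 884 CPM in the other 4 samples. In bulk tissue, fewer cells of a type and less RNA per cell cannot be told apart. The part of these shifts in the results for the subunits was not tested.

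**Figure D1:**
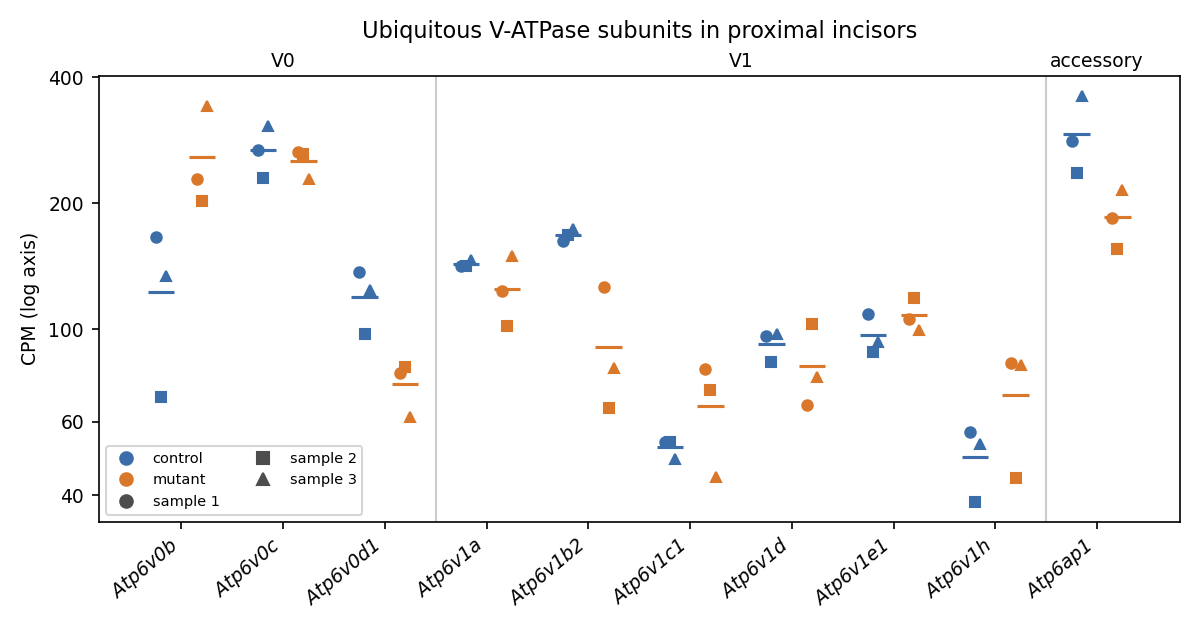
Levels of the 10 subunit genes in CPM on a log axis, with 1 point per sample (3 control and 3 mutant mice) and a bar at each group's mean, in the order V0, V1 and accessory. Atp6v0b is higher in all mutant samples, Atp6v0d1, Atp6v1b2 and Atp6ap1 are lower in all of them, and the other 6 genes overlap.

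The V0 members include the proteolipids of the rotor ring, Atp6v0c and Atp6v0b. Atp6v0c, the main proteolipid (c), lies on chromosome 17 of GRCm38 from 24163866 to 24169702. It had 267, 230 and 307 CPM in the controls and 264, 262 and 229 CPM in the mutants. The groups overlapped, and its log2 change was -0.09 (SE 0.23), with an edgeR adjusted p of 0.888. Counts given to Atp6v0c-ps2, a pseudogene of similar sequence, were 6.48 to 7.70% of those of Atp6v0c in control and 5.47 to 7.42% in mutant samples. Reads shared between the 2 could be split by the counting, so the value of Atp6v0c is uncertain by an amount that was not tested.

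Atp6v0b, a further proteolipid of the ring, lies on chromosome 4 from 117884326 to 117887333. It had 166, 68.7 and 134 CPM in the controls and 228, 202 and 342 CPM in the mutants. Every mutant sample was above every control sample, with control sample 2 the lowest and mutant sample 3 the highest. The log2 change was 1.07 (SE 0.37), or 2.10-fold, with an unadjusted p of 0.0197 and an edgeR adjusted p of 0.145. DESeq2 gave an adjusted p of 0.0438. The call was lost without mutant sample 3 (log2 change 0.80, unadjusted p of 0.0861), and without control sample 2 the log2 change was 0.78. Without mutant sample 1, the shallowest library and the one richest in muscle genes, it was 1.13.

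Atp6v0d1 encodes subunit d, which caps the proteolipid ring and couples it to the shaft of V1. The gene lies on chromosome 8 from 105524465 to 105566047. Its levels were 137, 97.5 and 124 CPM in the controls and 78.6, 80.9 and 61.7 CPM in the mutants. All mutant samples were below all control samples, and the log2 change was -0.70 (SE 0.23), or 1.62-fold lower. The unadjusted p was 0.0175 and the edgeR adjusted p was 0.135. The call was lost without control sample 1 (log2 change -0.59), without control sample 3 (-0.67) and without mutant sample 3 (-0.59), where unadjusted p-values were 0.0589, 0.0570 and 0.0617.

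The V1 members begin with the A and B subunits, which alternate around the ATP-hydrolysing head. Atp6v1a, the catalytic A subunit, lies on chromosome 16 from 44085402 to 44139705. It had 141, 141 and 146 CPM in the controls and 123, 102 and 150 CPM in the mutants. Mutant sample 3 was above all controls and mutant samples 1 and 2 were below them, so the groups overlapped. The log2 change was -0.20 (SE 0.23), with an edgeR adjusted p of 0.718.

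Atp6v1b2, the B subunit of most cells, lies on chromosome 8 from 69088646 to 69113711. Its controls were close together at 162, 168 and 174 CPM, and the mutants had 126, 64.9 and 80.5 CPM. All mutant samples were below all control samples. The log2 change was -0.90 (SE 0.28), or 1.86-fold lower, with an unadjusted p of 0.0128, an edgeR adjusted p of 0.113 and a DESeq2 adjusted p of 0.0289. Atp6v1b2 passed the rule under all 15 alternatives tried, with log2 changes from -1.22 to -0.72.

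A and B are built into V1 in equal number, so the ratio of their transcripts per length was looked at after the values were seen, as a description without a test. Atp6v1b2 was 1.65, 1.70 and 1.72 times as abundant as Atp6v1a in the controls and 1.47, 0.919 and 0.774 times in the mutants. The same description for Atp6v0b over Atp6v0d1, partners within V0, gave ratios of 2.04, 1.19 and 1.82 in the controls and 4.89, 4.21 and 9.34 in the mutants. The groups did not overlap in either ratio, in pairs chosen after their values were seen. Since Atp6v0b was higher and Atp6v0d1 lower in every mutant sample, their ratio could not have overlapped. Atp6v1b2 was by itself lower in every mutant sample. Neither ratio therefore adds support to the changes of the single genes.

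The members Atp6v1d and Atp6v1e1, of the shaft and the stalks of V1, overlapped between the genotypes. Atp6v1d, subunit D of the central shaft, lies on chromosome 12 from 78840725 to 78861638. It had 96.0, 83.3 and 97.3 CPM in the controls and 65.9, 103 and 76.6 CPM in the mutants. Mutant sample 2 was the highest of all 6 and mutant sample 1 the lowest, and the log2 change was -0.17 (SE 0.24), with an edgeR adjusted p of 0.773. Atp6v1e1, subunit E of the peripheral stalks, lies on chromosome 6 from 120794305 to 120822793. It had 108, 88.1 and 93.2 CPM in the controls and 106, 119 and 99.3 CPM in the mutants. The groups overlapped, with a log2 change of 0.16 (SE 0.21) and an edgeR adjusted p of 0.755.

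The remaining V1 members govern the joining of V1 to V0. Atp6v1c1, subunit C, which ties the stalks to the membrane and leaves when the pump comes apart, lies on chromosome 15 from 38661933 to 38692446. It had 53.8, 53.6 and 48.9 CPM in the controls and 80.1, 71.6 and 44.3 CPM in the mutants. Mutants 1 and 2 were above all controls and mutant 3 was below them, with a log2 change of 0.32 (SE 0.27) and an edgeR adjusted p of 0.592. Atp6v1h, subunit H, which silences ATP hydrolysis in free V1, lies on chromosome 1 from 5070018 to 5162529. It had 56.9, 38.7 and 53.1 CPM in the controls and 83.2, 44.0 and 81.8 CPM in the mutants. Only mutant sample 2 fell among the controls, and the log2 change was 0.49 (SE 0.31), with an edgeR adjusted p of 0.447. Without mutant sample 2, Atp6v1h passed the rule, at a log2 change of 0.72 and an unadjusted p of 0.0330.

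Atp6ap1 encodes the accessory subunit Ac45, which sits in V0 and takes part in its assembly. It lies on chromosome X from 74297097 to 74304721. Its levels were 281, 236 and 361 CPM in the controls and 184, 156 and 216 CPM in the mutants. All mutant samples were below all controls, with a log2 change of -0.66 (SE 0.26), or 1.58-fold lower, an unadjusted p of 0.0348 and an edgeR adjusted p of 0.203. Of the 4 members past the rule, Atp6ap1 lost its place most often. It did so without control sample 1 (log2 change -0.69), without control sample 3 (-0.48), without mutant sample 1 (-0.67) and without mutant sample 2 (-0.56), with unadjusted p-values from 0.0550 to 0.147.

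**Figure D2:**
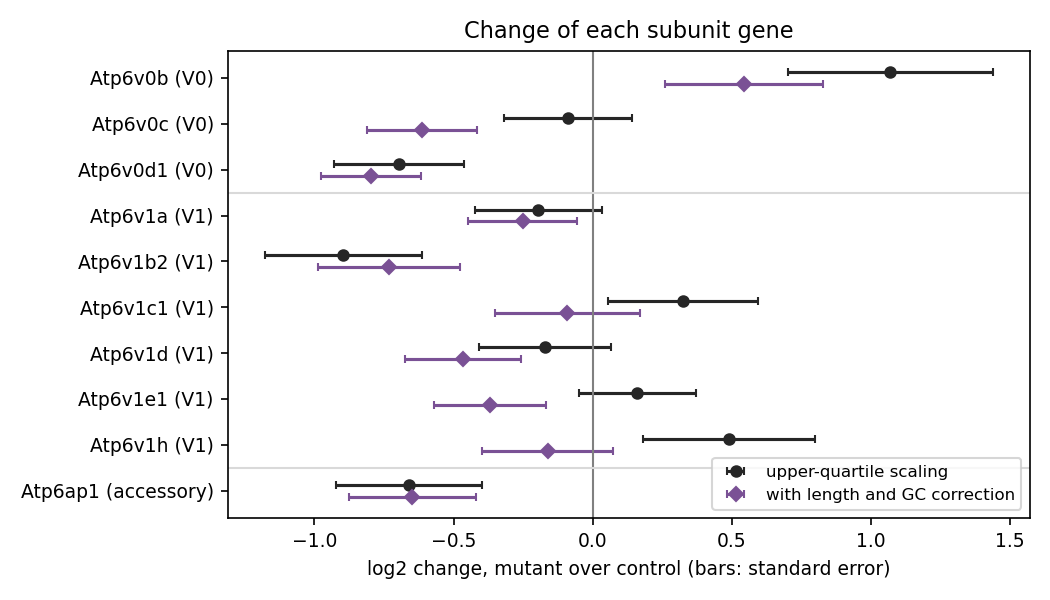
Log2 change (mutant over control) of each subunit gene with its standard error, with upper-quartile scaling alone (circles) and with an added correction for transcript length and GC content (diamonds). Atp6v0b moves from 1.07 to 0.54 with the correction and Atp6v0c from -0.09 to -0.61, while Atp6v0d1, Atp6v1b2 and Atp6ap1 stay below 0 in both.

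Per length of transcript, a proteolipid stood first in every sample. In the controls Atp6v0c was the highest member at 271 ± 38.7 CPM per kb (SD, n = 3), and it ranked first in all 3. Atp6ap1 at 135 ± 29.0 and Atp6v0b at 127 ± 51.1 CPM per kb followed and did not differ beyond their spread. Atp6v1e1 (73.6 ± 8.04) and Atp6v0d1 (73.3 ± 12.2) came next and could not be ordered either. Atp6v1b2 (59.4 ± 2.07) and Atp6v1a (35.2 ± 0.627) lay below them, each in the same rank in all 3 controls. Atp6v1h (27.4 ± 5.30), Atp6v1c1 (25.2 ± 1.34) and Atp6v1d (25.1 ± 2.11) were the lowest, with overlapping values.

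In the mutants the first place changed in sample 3 alone, and the lower places ran together. These levels were not corrected for the trend with transcript length given below. Atp6v0b at 266 ± 76.8 and Atp6v0c at 254 ± 20.3 CPM per kb (SD, n = 3) overlapped, with Atp6v0c ahead in mutants 1 and 2 and Atp6v0b ahead in mutant 3. Atp6ap1 (85.2 ± 13.8) and Atp6v1e1 (82.2 ± 7.46) overlapped as well. Atp6v0d1 (45.3 ± 6.45), Atp6v1h (38.5 ± 12.3), Atp6v1b2 (32.0 ± 11.2), Atp6v1c1 (31.5 ± 9.02), Atp6v1a (30.7 ± 5.93) and Atp6v1d (22.3 ± 5.19) followed, each within the spread of its neighbours. Control samples were tightest for Atp6v1a and Atp6v1b2, with coefficients of variation of 1.78% and 3.48%, where the mutants had 19.3% and 35.0%. Atp6v0b was the most variable member in the controls, at 40.3%, with control sample 2 the lowest.

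The V0 and V1 sectors were compared within each sample, as the mean log2 level of the 3 V0 members minus that of the 6 V1 members, a difference that no scaling of a whole sample can move. It was 0.94, 0.45 and 0.91 in the controls and 0.83, 1.03 and 1.02 in the mutants. The groups overlapped, with means of 0.77 ± 0.27 and 0.96 ± 0.11 (SD, n = 3), and the difference of 0.19 was below the pooled SD of 0.21. Without control sample 2 the difference was 0.04. By summed CPM, V0 over V1 was 0.921, 0.692 and 0.922 in the controls and 0.978, 1.08 and 1.19 in the mutants. On this measure all mutants lay above all controls. Atp6v0b, higher in every mutant sample, is 1 of the 3 genes in the V0 sum. In the same sum, Atp6v0c overlapped between the genotypes and Atp6v0d1 was lower in every mutant sample. The ratio of sums was not taken without Atp6v0b or after the correction for length and GC content, and it is not read as a shift of the sector.

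The balance between sectors hung on single members. Leaving Atp6v0b out turned the difference to -0.31, and leaving Atp6v0d1 out raised it to 0.60. Leaving Atp6v0c out gave 0.29 and leaving Atp6v1b2 out gave 0.02. The median log2 change of V0 members was -0.09, with 1 lower and 1 higher of 3, and that of V1 members was -0.01, with 1 lower and 0 higher of 6. The summed level of all 10 members was 1404 ± 176 CPM in control and 1308 ± 91.7 CPM in mutant samples.

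**Figure D3:**
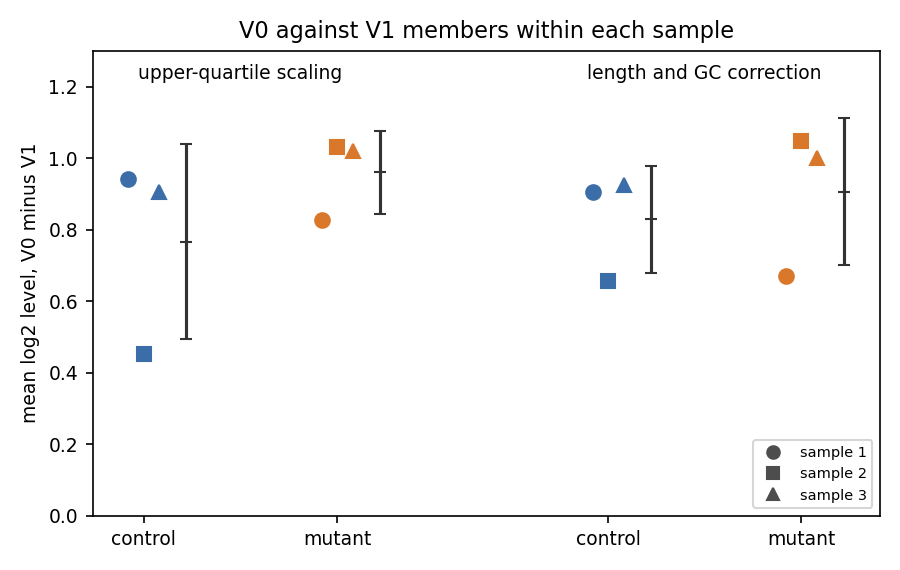
Mean log2 level of the 3 V0 members minus that of the 6 V1 members in each sample, with mean and SD beside the points, before and after the correction for length and GC content. Control and mutant samples overlap in both panels, and control sample 2 is the lowest in the first.

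Transcript length went with the change, among the members and over all genes. The members run from 967.5 bases (Atp6v0b) to 4065 bases (Atp6v1a), and Spearman's rho of length with log2 change was -0.54 over the 10 genes, which share the same libraries. Over the members and the other tested V-ATPase genes, 32 in all, rho was -0.36. Among all protein-coding genes, those under 1000 bases had a median log2 change of 0.78, with 36.8% called higher and 2.75% lower. From 1000 to 1500 bases the median was 0.27, from 1500 to 2000 bases it was 0.01, from 2000 to 3000 bases -0.17, and from 4000 bases up -0.29. GC content moved with it too, from a median log2 change of 0.60 in genes under 42% GC to -0.36 in genes of 54% GC or more.

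The members can be read against genes of like length or of like GC content. Atp6v0b, with its change of 1.07, and Atp6v0c, with its change of -0.09, are both under 1000 bases, where the median was 0.78. Their GC contents of 55.9% and 56.9% put both in the class of 54% or more, where the median was -0.36. Atp6v0b thus lay above the median of both classes, and Atp6v0c lay below that of its length class and above that of its GC class. Atp6v0d1, of 1629 bases, lay at -0.70 where the median was 0.01. Atp6v1b2 (2825 bases) at -0.90 and Atp6ap1 (2173 bases) at -0.66 stood in a class with a median of -0.17, where 10.7% of genes were called lower. By GC content, Atp6v0d1 (53.4%), Atp6v1b2 (50.4%) and Atp6ap1 (50.9%) fall between 50 and 54%, where the median was -0.24.

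**Figure D4:**
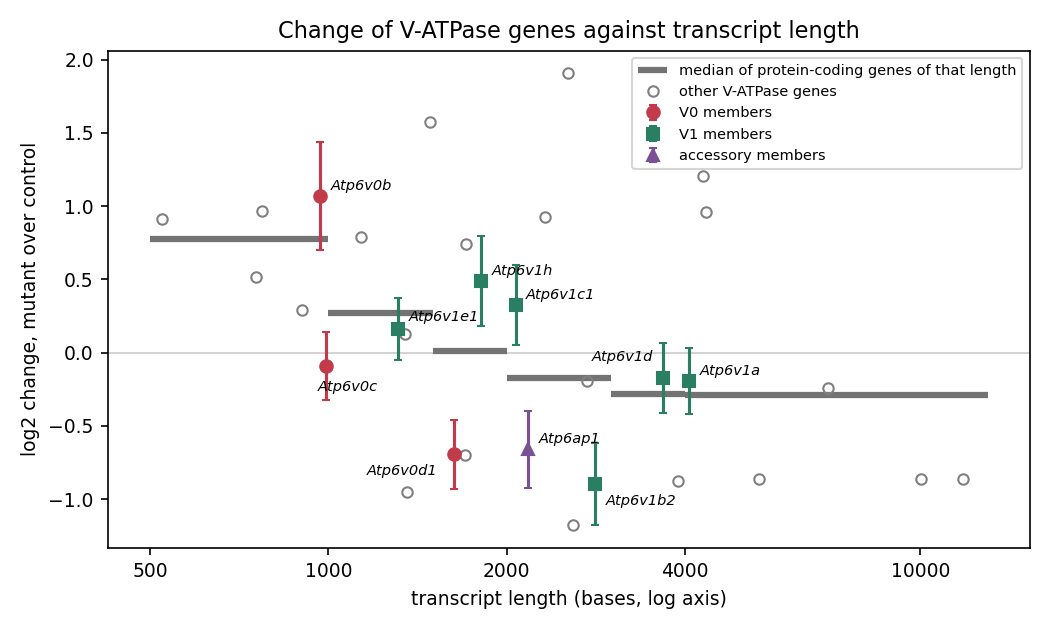
Log2 change of the V-ATPase genes against transcript length (log axis), with standard errors for the 10 members and grey bars at the median of protein-coding genes in each length class. The medians go from 0.78 below 1000 bases to -0.29 from 4000 bases up, and Atp6v0c, Atp6v0d1, Atp6v1b2, Atp6ap1 and, by a small margin, Atp6v1e1 lie below the bar of their class (Atp6v1b1, with no counts in the mutants, is left out).

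A smooth correction for length and GC content in each sample was run as an alternative. After it, 4 members were lower and 0 higher, where 8.8% and 5.8% of all genes were called. The 4 were Atp6v0c at a log2 change of -0.61 (SE 0.20, unadjusted p of 0.0158), Atp6v0d1 at -0.80 (SE 0.18, 0.00242), Atp6v1b2 at -0.73 (SE 0.26, 0.0222) and Atp6ap1 at -0.65 (SE 0.23, 0.0233). Their edgeR adjusted p-values were between 0.0695 and 0.211. Atp6v0b stood at 0.54 (SE 0.28, unadjusted p of 0.0934) and no longer passed. The V0 minus V1 difference was 0.08 in place of 0.19, and the medians were -0.61 for V0 and -0.31 for V1, where that of all genes was -0.11. Whether length, GC content or the genotype sets these changes cannot be told apart here, since depth and the length trend follow the genotype.

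The other genes of the pump were taken from a list of 25, of which 23 were in the count table and 22 could be tested. Of the 22, 2 were lower and 5 were higher, where 8.92% and 10.9% of all genes were called, with a median log2 change of 0.21. In 3 of them all mutants lay below all controls, in 5 all lay above, and in 14 the groups overlapped. Over all genes 16.3% lay below and 14.1% above. An edgeR adjusted p under 0.05 was reached by 1 of the 22, against 6.79% of all genes. After the correction for length and GC content, 1 was lower and 1 higher, where 8.8% and 5.8% of all genes were called.

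Among the a subunits, which place the pump in a given membrane and form its proton channel with the ring, Atp6v0a2 had 52.1, 52.9 and 62.7 CPM in the controls and 18.1, 44.5 and 29.2 CPM in the mutants. All mutants were below all controls, with a log2 change of -0.86 (SE 0.35) and an edgeR adjusted p of 0.212. The call was lost without control sample 1 (log2 change -0.91), 2 (-0.90) or 3 (-0.77), without mutant sample 1 (-0.62) or 3 (-0.84), and after the correction (-0.58). Atp6v0a1, the a1 subunit, had 76.0, 162 and 139 CPM in the controls and 32.7, 87.8 and 84.0 CPM in the mutants, overlapping, with a log2 change of -0.88 (SE 0.42) and an edgeR adjusted p of 0.302. Atp6v0a1 passed the rule with DESeq2 (-0.92), total counts (-1.14) and the replicate block (-0.94) and without control sample 1 (-1.14), at unadjusted p-values from 0.00357 to 0.0386. Tcirg1, the a3 subunit of osteoclasts, had 14.2, 12.0 and 9.04 CPM in the controls and 8.51, 6.57 and 15.7 CPM in the mutants, and the groups overlapped.

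The subunits tied to acid-secreting cells were scarce. Atp6v1b1, the B subunit of such epithelia, had 40, 66 and 99 counts in the controls and 0 in all 3 mutants. With the 3 mutants pooled at the 3 counts that a 0 allows, it was at least 17.0-fold lower, and its edgeR adjusted p was 0.0464. Under the alternatives that kept the gene, its adjusted p ran from 0.0383 (DESeq2) to 0.272 (replicate block), and it was above 0.05 with any sample left out, between 0.0537 and 0.190, while it passed the unadjusted rule in each. Atp6v0a4, its a-subunit partner in kidney, had 11, 6 and 12 counts against 0, at least 2.42-fold lower by the same floor, and was too low to be tested. At the control level the mutants together would have held 7.27 counts of it.

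Atp6v0d2, the d subunit of osteoclasts, had 1.34, 2.91 and 1.70 CPM in the controls and 18.3, 2.13 and 2.12 CPM in the mutants. Its log2 change of 1.91 (SE 1.11, edgeR adjusted p of 0.401) rested on mutant sample 1, without which it was 0.08. The summed level of 7 osteoclast markers, none of them at 0 in all mutants, was 136 to 255 CPM in control and 147 to 575 CPM in mutant samples, highest in mutant sample 1. Of the 5 that could be tested, 1 passed the rule as higher, Ctsk, where 10.9% of all genes did. Ctsk had 129, 129 and 73.6 CPM in the controls and 311, 103 and 258 CPM in the mutants, overlapping, with means of 111 and 224 CPM and an edgeR adjusted p of 0.228. Acp5, the next most abundant, overlapped too, with means of 52.7 and 82.3 CPM. Macrophage markers, led by C1qa and C1qc in the mean of all samples, summed to 145 to 451 CPM in control and 299 to 486 CPM in mutant samples, and none of 8 passed the rule.

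The 5 higher genes were small subunits, an assembly factor, an accessory subunit and a regulator. Atp6v0e, a small V0 subunit, had 119, 60.9 and 98.6 CPM in the controls and 161, 176 and 207 CPM in the mutants (log2 change 0.97, edgeR adjusted p of 0.0987). Atp6v1g1, subunit G of the stalks, had 215, 122 and 149 CPM against 269, 252 and 319 CPM (log2 change 0.79, adjusted p of 0.152). The accessory subunit Atp6ap2, the prorenin receptor, had 62.4, 56.4 and 71.3 CPM against 148, 71.4 and 141 CPM (log2 change 0.92, adjusted p of 0.131). In each of the 3, all mutants were above all controls. Atp6v1g1 did not pass with scaling by total counts (0.53) or without control sample 3 (0.73) or mutant sample 3 (0.67), and Atp6ap2 did not pass without mutant sample 1 (0.73) or 3 (0.78).

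Vma21, which helps to assemble V0 in the endoplasmic reticulum, had 41.9, 26.5 and 38.6 CPM in the controls and 47.6, 90.3 and 108 CPM in the mutants (log2 change 1.20, edgeR adjusted p of 0.0869). Oxr1, a TLDc-domain protein that acts on the assembled pump, had 79.7, 59.4 and 59.7 CPM against 124, 102 and 160 CPM (log2 change 0.96, adjusted p of 0.0662). After the correction for length and GC content, Oxr1 was at 0.69 and still passed the rule. Atp6v0e was then at -0.12, Atp6v1g1 at 0.07, Atp6ap2 at 0.14 and Vma21 at 0.25, and none of these passed.

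**Figure D5:**
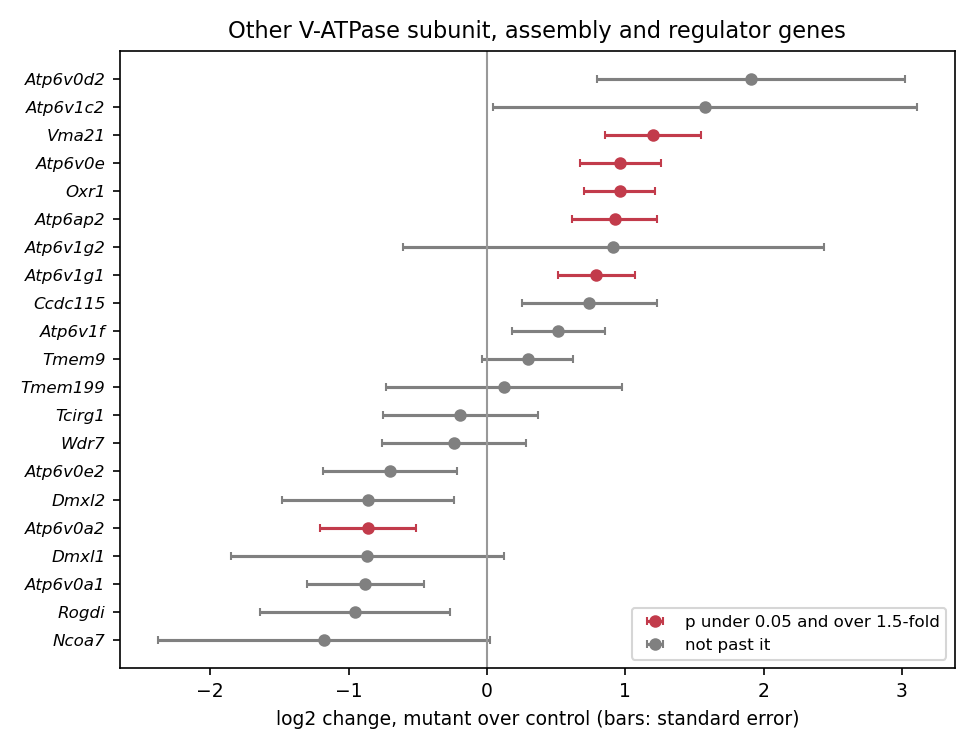
Log2 change with standard error of the other V-ATPase subunit, assembly and regulator genes, red where the gene passed an unadjusted p under 0.05 with over 1.5-fold. Vma21, Atp6v0e, Oxr1, Atp6ap2 and Atp6v1g1 are on the higher side at 0.79 to 1.20 and Atp6v0a2 on the lower at -0.86 (Atp6v1b1, with no counts in the mutants, is left out).

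The MiT/TFE factors, readers of the E-box shown above, were low in level and none of 3 passed the rule. Tfeb had 14.1, 15.1 and 14.6 CPM in the controls and 8.29, 14.6 and 8.87 CPM in the mutants, with a log2 change of -0.46 (SE 0.47). Tfe3 had 24.7, 34.8 and 30.3 CPM against 3.06, 22.4 and 38.6 CPM, with a log2 change of -0.48 (SE 0.71). Mitf had 4.25, 5.61 and 5.09 CPM against 12.2, 1.20 and 2.12 CPM, with a log2 change of 0.04 (SE 1.01). In all 3 the groups overlapped. Among the members with the E-box in the window, Atp6v0b was higher, Atp6v0d1 was lower and Atp6v1a overlapped. After the correction for length and GC content, Atp6v0b stood at 0.54 and no longer passed the rule. Windows were at hand for only 7 of the 10 members. Whether the MiT/TFE factors act on these genes here was not tested.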

How the data were processed

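RNA from the proximal incisors of 3 control and 3 mutant mice was sequenced as single reads. The authors trimmed and aligned reads to mm10 in Partek Flow, and the submitters' processing notes name TopHat2 2.0.8. They deposited estimated counts per gene without normalization, and a table of their own comparison (p-values, ratios and fold values per gene), which was not used. The counter, the annotation and any use of strand are not given in the sources used here. Samples were grouped by their titles.

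Counts were rounded to whole numbers and tested with edgeR 4.0.16 in R 4.3.3, using upper-quartile scaling, filterByExpr (minimum count 10, total 15), a model with genotype alone, two-sided quasi-likelihood p-values and Benjamini-Hochberg adjustment over 15826 genes. The fit was tested on simulated data. CPM are edgeR's counts scaled by library. Standard errors are approximate, from the log2 change and its F statistic. Prior count was 2. Alternatives were DESeq2 1.42.0, TMM and total-count scaling, other filters, protein-coding genes only, controls thinned to the mutants' mean of 9484805 counts, a smooth correction for transcript length and GC content (mgcv 1.9.3, fitted to protein-coding genes averaging 50 counts or more), the replicate number as a block, and leaving out each sample. Lengths and positions came from GENCODE M21 on GRCm38, by symbol (18637 of 19060 direct, 216 by synonym), and promoters from RefSeq.

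The members and gene lists were chosen with earlier results of these data known. The genes named were all members, the other V-ATPase genes past the rule, the a subunits, Atp6v0d2, the MiT/TFE factors, Fgfr1 and up to 2 markers of each list with the highest mean over all samples. Total counts ran from 31060222 to 32712448 in control and from 5276557 to 11819576 in mutant samples, and 3 counts, the most that a count of 0 allows, are 0.0825 to 0.0874 CPM in control and 0.256 to 0.655 CPM in mutant samples. These floors cover counting error only. Nothing states that samples of a group came from separate litters or batches, so p-values measure the spread between these samples. Whether control and mutant samples were prepared or sequenced together is not stated either. A batch that followed the genotype could not be told apart from it.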

Additional observations from a re-analysis of the deposited data

How the results depend on the processing

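Atp6v1b2 passed an unadjusted p under 0.05 with over 1.5-fold under all 15 alternatives, Atp6v0b under 13, Atp6v0d1 under 12 and Atp6ap1 under 11. The count of members lower was 4 with the length and GC correction and 1 to 3 with a sample left out (1 without control sample 1 or 3). The count higher was 0 with the correction and 0 to 2 with a sample left out (0 without mutant sample 3, 2 without mutant sample 2, where Atp6v1h joined). In the fits with a sample left out, 4.97 to 16.5% of all genes tested were called lower and 7.88 to 12.2% higher. With the correction these shares were 8.8% and 5.8%. Members with an adjusted p under 0.05 numbered 2 with DESeq2 (Atp6v0b and Atp6v1b2) and 1 with total counts (Atp6v1b2), and 0 with any sample left out. The median log2 change was -0.35 (V0) and -0.26 (V1) with total counts, where that of all genes was -0.30, and -0.61 (V0) and -0.31 (V1) with the correction. With a sample left out it ran from -0.19 to 0.02 (V0) and from -0.05 to 0.05 (V1), and the V0 minus V1 difference from 0.04 to 0.28. Log2 changes that turned sign were Atp6v0c (0.018 without control sample 3), Atp6v1e1 (-0.10 with total counts and -0.37 with the correction), Atp6v1c1 (-0.091) and Atp6v1h (-0.16), the latter both with the correction. None of them passed the rule in the fit where its sign turned.

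Of the other V-ATPase genes, 1 was lower and 1 higher with the correction. With total counts 4 were higher, against 7.92% of all genes. At a mean of at least 50 counts 1 was lower, against 7.73% of all genes. With a sample left out, 1 to 3 were lower and 3 to 6 higher (1 lower without control sample 2 or 3, 3 higher without mutant sample 3). Same-numbered samples deviated together with correlations of only 0.0472, 0.0094 and 0.0548, and the main fit did not pair them. The study's methods mention pairs of samples without saying which belong together, and other pairings were not tried. With the replicate block 3 members were lower and 1 higher, and 4 other V-ATPase genes were lower. Of all genes, 7.84% were then called lower and 9.5% higher, and 508 in place of 1074 had an adjusted p under 0.05. Of all genes called, 55.0% were higher with upper-quartile scaling, 46.7% with TMM and 39.7% with the correction. The cause was not tested where counts or directions differed. Mutant depth limits low genes such as Atp6v0a4 and Tcirg1.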
